A study of Caenorhabditis elegans with 9 samples.

Results

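The dosage compensation complex of Caenorhabditis elegans was examined through the transcripts of its 10 subunit genes, sdc-1, sdc-2, sdc-3, dpy-21, dpy-26, dpy-27, dpy-28, dpy-30, mix-1 and capg-1. A probe set, the group of array probes that reads 1 transcript, was taken as a member when the platform annotation gave it to 1 of these genes alone. This gave 17 of 22548 probe sets that are not manufacturer controls. Both probe sets were kept for the 7 genes that had 2, and sdc-3, dpy-26 and dpy-30 had 1 each. The genes sdc-1 and sdc-2 lie on X, and the other 8 are autosomal (dpy-27 and dpy-28 on chromosome III, sdc-3, dpy-21 and dpy-30 on V, dpy-26 on IV, mix-1 on II and capg-1 on I in the WBcel235 annotation).

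In this nematode XX animals are hermaphrodites and animals with a single X are males. The complex binds along both X chromosomes of hermaphrodites and lowers their transcription, so that X output matches that of males. SDC-2 is the protein that starts this binding, together with SDC-3 and DPY-30, and SDC-1 joins them. The core is a condensin, a ring-shaped machine that shapes chromosomes, built from the SMC ATPases DPY-27 and MIX-1 and the subunits DPY-26, DPY-28 and CAPG-1. DPY-27 works in this complex alone, while MIX-1, DPY-26, DPY-28 and CAPG-1 also serve the condensins of cell division. DPY-21 removes methyl groups from histone H4 on X, and DPY-30 is shared with the COMPASS enzymes that methylate histone H3. SUMO, the small protein encoded by smo-1, is attached to other proteins and has been tied to assembly of the complex.

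Total RNA of mixed-stage embryos was measured on 9 Affymetrix arrays in 3 groups of 3. The smo-1 RNAi embryos came from N2 (wild-type) XX worms fed bacteria that make double-stranded RNA against smo-1. The second group came from XX worms that carried the allele sdc-2(y93) and were also fed sdc-2 RNAi bacteria, and its embryos are named y93 embryos for short. Control embryos came from N2 XX worms on bacteria with the empty vector L4440. Worms of both RNAi groups were kept for 24 hours on HB101 and for the next 72 hours on RNAi plates, against about 96 hours on RNAi plates for control worms, all at 20 °C. Allele and RNAi were combined in every y93 sample, so their shares cannot be told apart, and neither can the different feeding schedule. The growth text names only smo-1 as the plasmid's target, and the sdc-2 RNAi label comes from the source name. Embryos were pooled by bleaching worms, and the labels do not say whether replicates were grown separately, so each p-value reflects only how far these samples scattered, possibly for technical reasons.

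Values are log2 signals after RMA, a scaling that makes all arrays alike in distribution, and array medians lay between 6.51 and 6.73. A difference of 1 is a doubling of signal, and signals of different probe sets are not on a common scale. Tests were limma's moderated tests over all 22548 probe sets with Benjamini-Hochberg adjustment and a threshold of 0.05, and each change is given ± its limma standard error. The 32 control probe sets for Bacillus and yeast transcripts averaged at most 6.29 in smo-1 RNAi, 6.01 in y93 and 6.25 in control embryos, which marks the range of a signal without a target. A spiked hybridisation control, cre, averaged 4.99 in smo-1 RNAi, 13.11 in y93 and 5.28 in control arrays, and the labels give no hybridisation batch. Embryo identity was checked with markers. In all, 23 of 26 maternal genes and 15 of 16 genes of late differentiation were above the median level of 6.65, against 2 of 12 genes of adult tissue and sperm, and the measured yolk protein genes lay between 4.83 (vit-2) and 6.19 (vit-6).

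The labels were checked on smo-1 and her-1. The smo-1 transcript read 7.91, 8.21 and 8.66 in smo-1 RNAi, 10.96, 10.74 and 10.94 in y93 and 11.96, 11.79 and 12.04 in control embryos. Its level in smo-1 RNAi embryos was thus 12.7-fold lower (log2 −3.67 ± 0.17, limma adjusted p = 8.43e-08) than in control, and in y93 embryos 2.07-fold lower (adjusted p = 0.000973). The male-promoting gene her-1, which SDC-2 holds down in XX animals, was 5.57-fold higher in y93 embryos, at 9.78, 9.73 and 9.84 against 7.50, 7.19 and 7.24 in control (log2 2.48 ± 0.10, limma adjusted p = 5.98e-07). After smo-1 RNAi, her-1 read 7.53, 7.75 and 7.60 (log2 0.32 ± 0.10, limma adjusted p = 0.0312), a call that ended without control array 2 or 3 or smo-1 RNAi array 2 or 3, with changes from 0.25 to 0.41 when single arrays were left out. Centring arrays on autosomal probe sets also ended it (adjusted p = 0.0712).

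**Figure D1:**
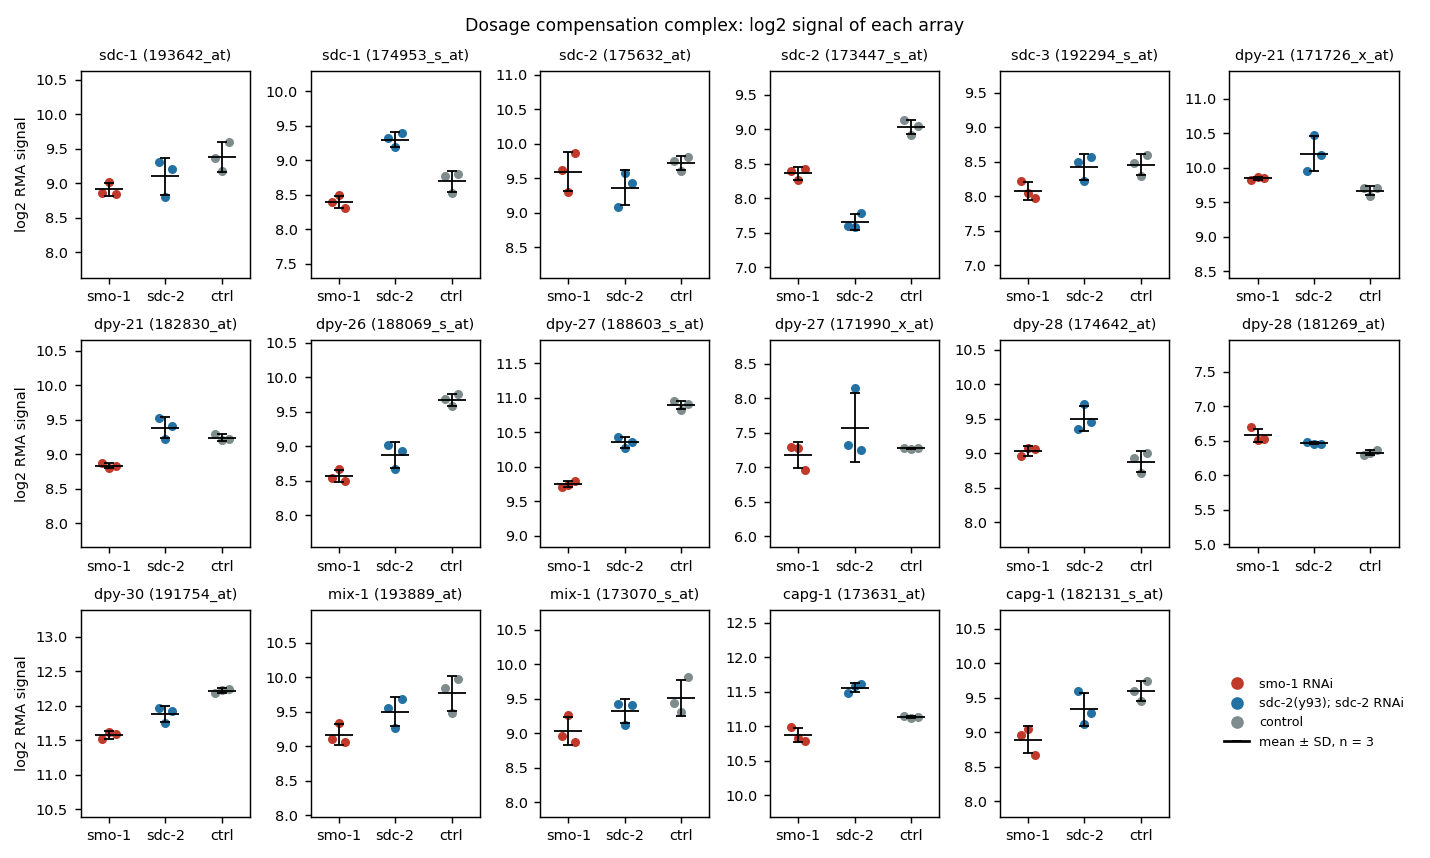
Each panel is 1 of the 17 member probe sets, with the log2 RMA signal of every array (points) and the mean ± SD of smo-1 RNAi, sdc-2(y93) with sdc-2 RNAi, and control embryos (n = 3 each); all panels span the same log2 range around their own centre. The dpy-26, dpy-27 (188603_s_at) and dpy-30 points separate all perturbed arrays from control, while dpy-27 (171990_x_at) has overlapping groups.

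In smo-1 RNAi embryos most subunit transcripts were lower than in control. Of the 17 probe sets, 12 fell, 1 rose and 4 did not pass the test, with a median log2 change of −0.41. Taking the brightest probe set of each gene, 7 of 10 genes fell and none rose. Bright transcripts fell widely in these embryos: limma called 23.5% of all 22548 probe sets lower and 16.8% higher, and among the 11274 above the median level 39.8% lower and 21.4% higher, with a median of −0.19. The 12 of 17 was a larger share than these, given as a description with no test. The member arrays did not overlap control for 14 of 17 probe sets, against 71.9% of probe sets above the median level, where 16 of the 17 lay, and 55.7% of all probe sets. Leaving out control array 3 or smo-1 RNAi array 3 left 7 of the 12 lower calls, and centring arrays on bright autosomal probe sets left 6. The pools are bulk samples, so fewer cells of a kind and less RNA per cell cannot be told apart.

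In y93 embryos the subunits changed in both directions. Of the 17 probe sets, 4 fell, 4 rose and 9 did not pass the test, with a median log2 change of −0.20. Taking the brightest probe set of each gene, dpy-26, dpy-27 and dpy-30 fell, and dpy-21, dpy-28 and capg-1 rose. Over all probe sets limma called 16.1% lower and 10.9% higher, and above the median level 28% lower and 19.8% higher, with a median of −0.10, so the members' counts were close to these shares. Arrays did not overlap control for 10 of 17 members, close to the 60.4% of probe sets above the median level, and against 38.6% of all probe sets.

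**Figure D2:**
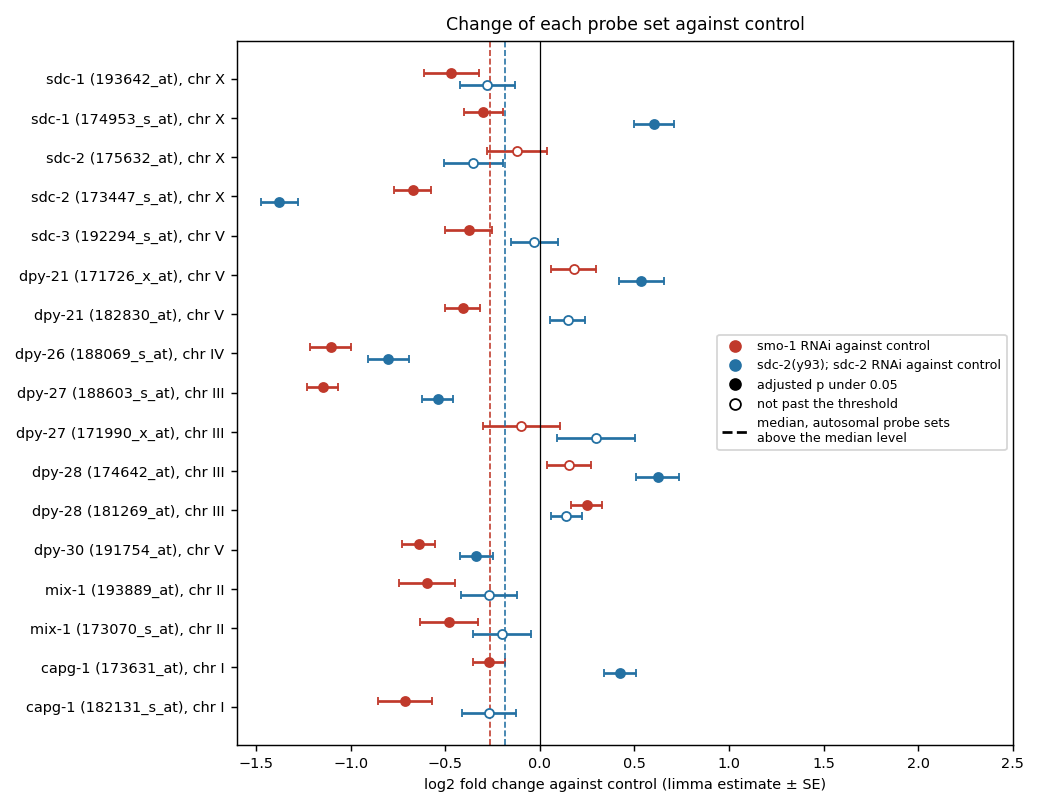
Log2 fold change against control of each member probe set (points, with limma standard errors), for smo-1 RNAi and for sdc-2(y93) with sdc-2 RNAi; filled points passed an adjusted p of 0.05, and dashed lines are the medians of autosomal probe sets above the median level. The dpy-26 and dpy-27 (188603_s_at) points lie farthest left for smo-1 RNAi, and sdc-2 (173447_s_at) farthest left for sdc-2(y93) with sdc-2 RNAi.

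Among the genes of the X-loading proteins, sdc-2, the gene targeted in y93 embryos, was read by 2 probe sets that gave unlike answers. Probe set 173447_s_at read 8.40, 8.26 and 8.42 in smo-1 RNAi, 7.59, 7.59 and 7.78 in y93 and 9.13, 8.92 and 9.05 in control embryos. All 3 groups were separate on it. It was 2.60-fold lower in y93 embryos (log2 −1.38 ± 0.10, limma adjusted p = 1.56e-05) and 1.59-fold lower in smo-1 RNAi embryos (log2 −0.67 ± 0.10, limma adjusted p = 0.000246). Its suffix s marks a probe set that the manufacturer designed on a sequence shared by several transcripts. Probe set 175632_at read 9.62, 9.31 and 9.86 in smo-1 RNAi, 9.09, 9.58 and 9.43 in y93 and 9.74, 9.60 and 9.80 in control embryos. On it the change was −0.35 ± 0.16 in y93 embryos, without overlap with control but not past the test (limma adjusted p = 0.137), and −0.12 ± 0.16 in smo-1 RNAi embryos (limma adjusted p = 0.623). The position of either probe set along the transcript, relative to the RNAi trigger or the y93 lesion, was not analysed here.

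The zinc-finger gene sdc-1 also had 2 probe sets. Probe set 174953_s_at read 8.39, 8.49 and 8.31 in smo-1 RNAi, 9.31, 9.19 and 9.39 in y93 and 8.77, 8.52 and 8.80 in control embryos. It rose 1.52-fold in y93 embryos (log2 0.60 ± 0.10, limma adjusted p = 0.00156) and fell 1.23-fold in smo-1 RNAi embryos (limma adjusted p = 0.0396). Probe set 193642_at read 8.86, 9.02 and 8.85 in smo-1 RNAi, 9.30, 8.80 and 9.20 in y93 and 9.37, 9.17 and 9.59 in control embryos. On it sdc-1 fell 1.38-fold in smo-1 RNAi embryos (limma adjusted p = 0.0255), and its change in y93 embryos was −0.28 ± 0.15 (limma adjusted p = 0.213). The rise was thus seen on 1 of the 2 probe sets. Both smo-1 RNAi calls ended without control array 1 or 3 or smo-1 RNAi array 1 or 3, with log2 changes of −0.57 to −0.36 on 193642_at and −0.39 to −0.25 on 174953_s_at when single arrays were left out.

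SDC-3, a zinc-finger protein needed with SDC-2 to recruit the complex, was read by 1 probe set of the s kind. Its gene read 8.22, 8.04 and 7.97 in smo-1 RNAi, 8.50, 8.21 and 8.57 in y93 and 8.48, 8.29 and 8.59 in control embryos. The smo-1 RNAi arrays lay below control, and the y93 arrays overlapped it. The gene fell 1.30-fold in smo-1 RNAi embryos (log2 −0.38 ± 0.12, limma adjusted p = 0.0303), a call that ended without control array 1 or 3 or smo-1 RNAi array 2 or 3, with changes of −0.46 to −0.31. In y93 embryos it changed by −0.03 ± 0.12 (limma adjusted p = 0.908).

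Among the condensin subunits, dpy-27 and dpy-26 showed the largest falls of the members in smo-1 RNAi embryos. DPY-27 is the SMC ATPase found in no other condensin. Its brighter probe set 188603_s_at read 9.71, 9.73 and 9.80 in smo-1 RNAi, 10.44, 10.28 and 10.36 in y93 and 10.95, 10.83 and 10.92 in control embryos, so the 3 groups were fully separate. It fell 2.22-fold in smo-1 RNAi embryos (log2 −1.15 ± 0.08, limma adjusted p = 2.07e-06) and 1.45-fold in y93 embryos (log2 −0.54 ± 0.08, limma adjusted p = 0.000799). Of the 11274 probe sets above the median level, 5.78% fell further than it in smo-1 RNAi embryos and 18.7% in y93 embryos. The dimmer probe set 171990_x_at, whose suffix x marks some probes that match other sequences, read 7.29, 7.28 and 6.97 in smo-1 RNAi, 7.32, 8.15 and 7.25 in y93 and 7.28, 7.27 and 7.28 in control embryos. It passed the test in neither comparison (limma adjusted p = 0.776 for smo-1 RNAi and 0.362 for y93), and 1 array, y93 array 2, stood above the rest.

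DPY-26 is the kleisin, the subunit that closes the ring. Its single probe set, of the s kind, read 8.54, 8.67 and 8.50 in smo-1 RNAi, 9.01, 8.67 and 8.94 in y93 and 9.68, 9.58 and 9.76 in control embryos. Every array of both perturbed groups lay below every control array. It fell 2.15-fold in smo-1 RNAi embryos (log2 −1.11 ± 0.11, limma adjusted p = 1.75e-05) and 1.74-fold in y93 embryos (log2 −0.80 ± 0.11, limma adjusted p = 0.000393). Further falls were seen for 6.63% of probe sets above the median level in smo-1 RNAi embryos and for 8.19% in y93 embryos.

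MIX-1, the SMC partner of DPY-27 and of the mitotic SMC-4, was read by 2 probe sets, both of which fell in smo-1 RNAi embryos. Probe set 193889_at read 9.11, 9.34 and 9.06 in smo-1 RNAi, 9.55, 9.27 and 9.68 in y93 and 9.85, 9.49 and 9.97 in control embryos. It fell 1.51-fold in smo-1 RNAi embryos (log2 −0.60 ± 0.15, limma adjusted p = 0.00749). Probe set 173070_s_at read 8.96, 9.27 and 8.88 in smo-1 RNAi, 9.43, 9.11 and 9.41 in y93 and 9.43, 9.31 and 9.81 in control embryos. It fell 1.40-fold in smo-1 RNAi embryos (limma adjusted p = 0.0276), a call that ended without control array 3 or smo-1 RNAi array 1 or 3, with log2 changes of −0.60 to −0.34. In y93 embryos the changes were −0.27 ± 0.15 and −0.20 ± 0.15 (limma adjusted p = 0.235 and 0.419).

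The subunit CAPG-1 gave lower values in smo-1 RNAi embryos on both of its probe sets and higher values in y93 embryos on 1. The brighter, 173631_at, read 10.98, 10.83 and 10.79 in smo-1 RNAi, 11.48, 11.58 and 11.61 in y93 and 11.15, 11.12 and 11.13 in control embryos. All smo-1 RNAi arrays were below control and all y93 arrays above it. It rose 1.34-fold in y93 embryos (log2 0.42 ± 0.08, limma adjusted p = 0.00382). The fall in smo-1 RNAi embryos was 1.21-fold (limma adjusted p = 0.0261), and ended without any 1 control array or smo-1 RNAi array 2 or 3, with log2 changes of −0.33 to −0.23. The dimmer, 182131_s_at, read 8.95, 9.05 and 8.67 in smo-1 RNAi, 9.59, 9.12 and 9.28 in y93 and 9.60, 9.46 and 9.75 in control embryos. It fell 1.64-fold in smo-1 RNAi embryos (log2 −0.71 ± 0.14, limma adjusted p = 0.00218), and its change of −0.27 ± 0.14 in y93 embryos did not pass the test (limma adjusted p = 0.214).

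The HEAT-repeat subunit gene dpy-28 did not fall in either comparison. Its brighter probe set 174642_at read 8.95, 9.08 and 9.06 in smo-1 RNAi, 9.35, 9.71 and 9.45 in y93 and 8.93, 8.71 and 9.0 in control embryos. It rose 1.54-fold in y93 embryos, all of whose arrays were above control (log2 0.62 ± 0.11, limma adjusted p = 0.00228). The smo-1 RNAi arrays overlapped control, with a change of 0.15 ± 0.11 (limma adjusted p = 0.343). The dimmer probe set 181269_at read 6.69, 6.51 and 6.53 in smo-1 RNAi, 6.49, 6.46 and 6.46 in y93 and 6.29, 6.32 and 6.37 in control embryos. It was the only member below the median level, close to the range of controls without a target. It rose 1.19-fold in smo-1 RNAi embryos (limma adjusted p = 0.0336), and the call ended without any 1 control array or smo-1 RNAi array 1 or 3, with log2 changes of 0.19 to 0.28.

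Over the 9 probe sets of the 5 condensin subunits, 6 fell and 1 rose in smo-1 RNAi embryos, and 2 fell and 2 rose in y93 embryos. Over the 5 probe sets of the 3 sdc genes, 4 fell and none rose in smo-1 RNAi embryos, with 4 past an unadjusted p of 0.05, and 1 fell and 1 rose in y93 embryos. Among probe sets above the median level limma called 39.8% lower and 21.4% higher in smo-1 RNAi embryos, and 28% lower and 19.8% higher in y93 embryos, where the counts of both sets of subunits were near these shares.

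DPY-30 and DPY-21 stand outside the condensin. The dpy-30 transcript read 11.51, 11.62 and 11.60 in smo-1 RNAi, 11.97, 11.75 and 11.92 in y93 and 12.18, 12.23 and 12.25 in control embryos, with no overlap between any groups. It fell 1.56-fold in smo-1 RNAi embryos (log2 −0.64 ± 0.09, limma adjusted p = 0.000161) and 1.26-fold in y93 embryos (log2 −0.34 ± 0.09, limma adjusted p = 0.0143). The smaller fall was not past the test without control array 3, when changes over single arrays left out ran from −0.38 to −0.27, or after centring on autosomal probe sets (adjusted p = 0.07) or bright autosomal ones (adjusted p = 0.363).

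The demethylase gene dpy-21 was read differently by its probe sets. On 182830_at the values were 8.87, 8.80 and 8.83 in smo-1 RNAi, 9.52, 9.22 and 9.41 in y93 and 9.29, 9.20 and 9.22 in control embryos. This fell 1.33-fold in smo-1 RNAi embryos, all below control (log2 −0.41 ± 0.09, limma adjusted p = 0.00474), but not after centring on bright autosomal probe sets (adjusted p = 0.13). On 171726_x_at the values were 9.83, 9.87 and 9.85 in smo-1 RNAi, 9.96, 10.47 and 10.19 in y93 and 9.71, 9.59 and 9.71 in control embryos. This rose 1.45-fold in y93 embryos (log2 0.54 ± 0.12, limma adjusted p = 0.00698), and in smo-1 RNAi embryos, also above control on every array, changed by 0.18 ± 0.12 (limma adjusted p = 0.295).

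The perturbed groups were then compared directly, smo-1 RNAi over y93. Of the 17 probe sets 9 were lower, 1 was higher and 7 did not pass, with a median of −0.35. Arrays did not overlap for 10 of 17, close to the 62.2% of probe sets above the median level, and against 42.6% of all probe sets. Limma called 17.9% of all probe sets lower and 17.4% higher, and above the median level 32.1% lower and 23.8% higher. Of X-linked probe sets above the median level, 43.5% were called lower and 21.5% higher, and of autosomal ones 30.3% and 23.8%. The single higher one was sdc-2 173447_s_at (log2 0.70 ± 0.10, limma adjusted p = 0.000221). The lowest were sdc-1 174953_s_at (−0.90 ± 0.10, limma adjusted p = 6.83e-05), capg-1 173631_at (−0.69 ± 0.08, adjusted p = 0.000105) and dpy-27 188603_s_at (−0.61 ± 0.08, adjusted p = 0.000209). The other lower calls that held with each array left out were dpy-21 182830_at (−0.55 ± 0.09) and dpy-28 174642_at (−0.47 ± 0.11). For dpy-26 the difference was −0.30 ± 0.11 (limma adjusted p = 0.0502). With autosomal centring it was −0.48 (adjusted p = 0.00321), and 13 member probe sets were lower, dpy-26, both mix-1 probe sets and dpy-27 171990_x_at being added. That centring moved the median of all probe sets by −0.18. Of all called probe sets 73.0% were then lower, against 50.8% with the deposited scaling. The lower calls of sdc-3, dpy-21 171726_x_at, capg-1 182131_s_at and dpy-30 ended when single arrays were left out, and 5 lower calls were left without y93 array 3. For sdc-3 each of 6 arrays did so (control 1 and 3, smo-1 RNAi 2 and 3, y93 1 and 3), with log2 differences of −0.45 to −0.28 over single arrays left out. For dpy-21 each of 8 did so, every array but y93 1, with −0.48 to −0.23. For capg-1 the 5 were control 1, smo-1 RNAi 1 and 3 and y93 1 and 3, with −0.55 to −0.31, and for dpy-30 the 2 were smo-1 RNAi 1 and y93 3, with −0.37 to −0.26.

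The 7 genes with 2 probe sets were checked for unlike changes within a gene. The difference between brighter and dimmer probe set was taken on each array. In an exact two-sided permutation of 3 against 3 arrays no gene passed after Benjamini-Hochberg adjustment, since the smallest p that this allows is 0.1. A limma fit of the same difference over all 2496 genes with exactly 2 probe sets, chosen after seeing the data, called 4 of 7 members in smo-1 RNAi embryos (sdc-2, dpy-21, dpy-27 and capg-1) and 5 of 7 in y93 embryos (sdc-1, sdc-2, dpy-27, dpy-28 and capg-1). Over all such genes the shares were 40.2% and 47.3%. The change of the difference was −1.05 ± 0.23 for dpy-27 in smo-1 RNAi embryos (limma adjusted p = 0.00383), and in y93 embryos 1.03 ± 0.15 for sdc-2 (limma adjusted p = 0.000309) and −0.88 ± 0.13 for sdc-1 (limma adjusted p = 0.00029). The 2 probe sets had opposite signs for dpy-21 in smo-1 RNAi embryos and for sdc-1, dpy-27 and capg-1 in y93 embryos. No member gene had both probe sets past the test in opposite directions, which held for 1.04% and 4.61% of the 2496 genes.

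**Figure D3:**
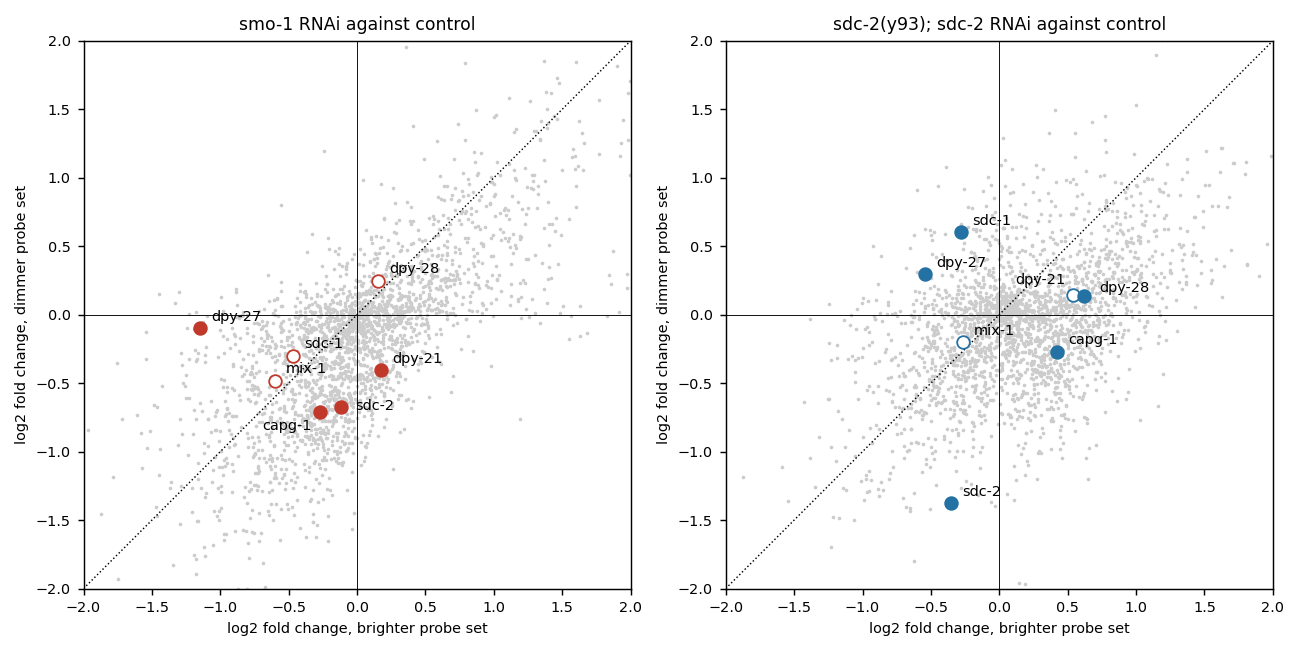
Log2 fold change against control on the brighter (x) and the dimmer (y) probe set of each gene with exactly 2, for smo-1 RNAi (left) and sdc-2(y93) with sdc-2 RNAi (right); grey points are all such genes (those beyond 2 on either axis lie outside the frame), coloured points are the members, filled where the limma test of the difference passed. In the left panel dpy-27 lies far to the left of the diagonal, and in the right panel sdc-2 lies far below it.

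Chromosome gave a different setting for the members in each comparison. Autosomal probe sets above the median level had a median change of −0.26 in smo-1 RNAi and −0.18 in y93 embryos, and X-linked ones of 0.18 and 0.43. Of 1845 X-linked probe sets above the median level, limma called 55.7% higher and 3.74% lower in y93 embryos, and 41% higher and 21.7% lower in smo-1 RNAi embryos. Against these, sdc-2 173447_s_at was the lowest of the 1845 in y93 embryos, which carry the sdc-2 RNAi. The change of 0.60 on sdc-1 174953_s_at in y93 embryos stood above 62.4% of these X-linked changes. The other sdc-1 probe set, 193642_at, stood above 5.53% of them (−0.28), and sdc-2 175632_at above 4.17% (−0.35). Of the 13 autosomal member probe sets, 9 fell and 1 rose in smo-1 RNAi embryos (median −0.41), and 3 fell and 3 rose in y93 embryos (median −0.03). Among the 8962 autosomal probe sets above the median level, limma called 43.9% lower and 16.9% higher in smo-1 RNAi embryos, and 33% lower and 12.7% higher in y93 embryos.

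RMA cannot show a shift of all transcripts, and neither can centring, which makes the median of the chosen probe sets equal on all arrays. As another scaling, arrays were also centred on bright autosomal probe sets, those above the median level. This moved the all-probe-set median by 0.23 in smo-1 RNAi and 0.24 in y93 embryos. With that centring 6 members fell and 3 rose in smo-1 RNAi embryos, beside 26.8% lower and 31.6% higher among probe sets above the median level. The 6 were sdc-2 173447_s_at, dpy-26, dpy-27 188603_s_at, dpy-30, mix-1 193889_at and capg-1 182131_s_at, with changes of −0.92 for dpy-27 and −0.88 for dpy-26. In y93 embryos 3 fell (sdc-2 173447_s_at, dpy-26 and dpy-27 188603_s_at) and 6 rose, beside 16.7% and 35%, and the members' median changed sign to 0.04. Under this centring the lower share of all called probe sets was 31.7% in smo-1 RNAi and 21.2% in y93 embryos, against 58.3% and 59.6% with the deposited scaling.

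**Figure D4:**
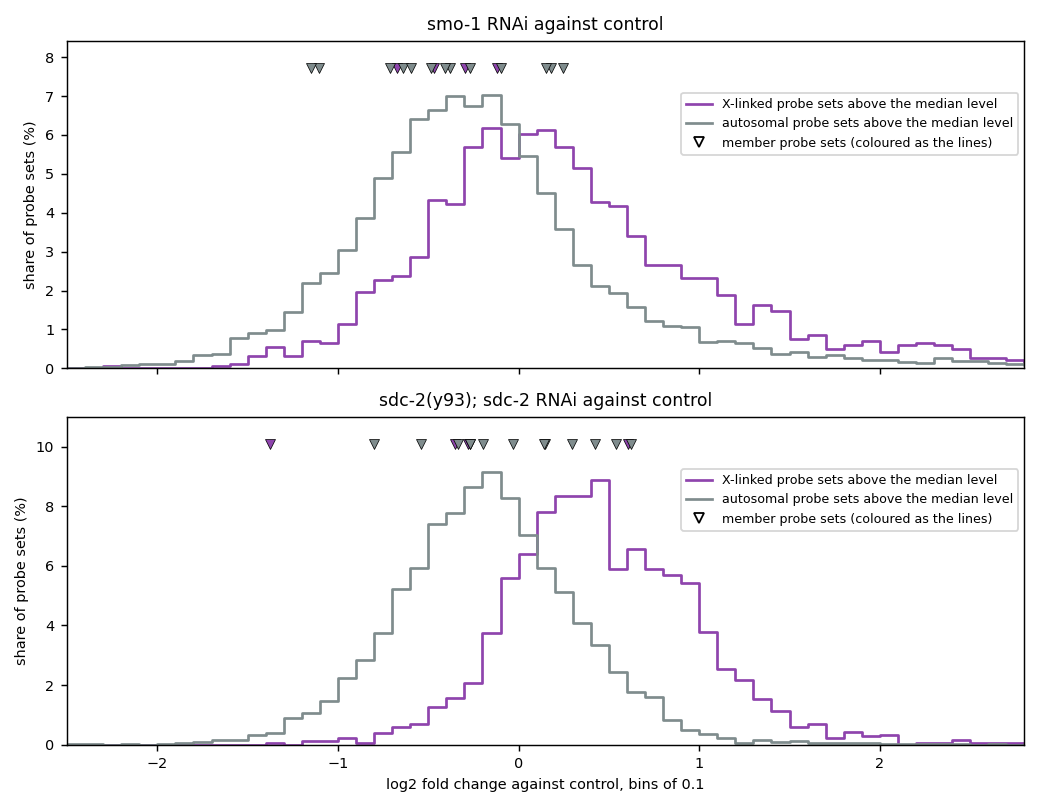
Share of probe sets above the median level in each bin of log2 fold change against control, for X-linked and autosomal probe sets, in smo-1 RNAi (top) and sdc-2(y93) with sdc-2 RNAi (bottom); triangles are the member probe sets at their own change, coloured by chromosome, and values beyond the frame are not drawn. The X-linked sdc-2 triangle at −1.38 in the bottom panel lies at the far left of the X-linked curve.

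Genes that work with the complex gave a wider view. Each is read by its brightest probe set. Of 4 condensin subunits outside the complex, 2 fell in smo-1 RNAi embryos: the mitotic SMC ATPase smc-4 (log2 −0.89, limma adjusted p = 0.000472) and capg-2 (−0.82, adjusted p = 0.00272). In y93 embryos 1 rose, kle-2 (0.64, limma adjusted p = 0.00558), and with bright autosomal centring capg-2 also rose (adjusted p = 0.019). Of 5 measured COMPASS and MLL partners of DPY-30, 3 fell in smo-1 RNAi embryos, the methyltransferase gene set-16 (−1.25, limma adjusted p = 8e-05), ash-2 (−0.68) and wdr-5.1 (−0.48), the wdr-5.1 call ending with bright autosomal centring (adjusted p = 0.063). In y93 embryos set-16 fell (−0.74) while the methyltransferase set-2 (0.63) and cfp-1 (0.74) rose. The list's median there was −0.04, and its sign turned to 0.08 and 0.20 under the autosomal and bright autosomal centrings.

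Of 5 genes for the chromatin of the compensated X, 4 fell in smo-1 RNAi embryos. These were cec-4, a chromodomain anchor at the nuclear edge (−1.50, limma adjusted p = 1.81e-06), set-1, which puts the first methyl group on the histone H4 lysine that DPY-21 acts on (−1.16, adjusted p = 5.2e-06), the histone variant htz-1 (−0.97) and the deacetylase sir-2.1 (−0.58). In y93 embryos cec-4 (−0.71), htz-1 (−0.49) and set-1 (−0.29) fell and sir-2.1 rose (0.33). The set-1 call ended without any 1 array other than smo-1 RNAi 1 (−0.32 to −0.23), and the sir-2.1 call without any control array or y93 1 or 3 (0.26 to 0.39). Autosomal centring ended the set-1 call in y93 embryos (adjusted p = 0.19), and bright autosomal centring those of set-1 (adjusted p = 0.672) and htz-1 (adjusted p = 0.061), leaving 1 fall and a list median of −0.05 in place of −0.29.

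Upstream of the complex, 6 genes weigh the X chromosomes against the autosomes and set the switch. In y93 embryos 5 rose: xol-1, the switch that blocks the complex in males (1.96, limma adjusted p = 1.38e-05), the X signal genes ceh-39 (1.33), fox-1 (1.16) and sex-1 (0.49), and the autosomal signal gene sea-2 (0.87). Of these, xol-1, ceh-39, fox-1 and sex-1 lie on X. Among X-linked probe sets above the median level limma called 55.7% higher and 3.74% lower in y93 embryos, with a median change of 0.43. For smo-1 RNAi the X-linked shares were 41% higher and 21.7% lower. In smo-1 RNAi embryos xol-1 rose (1.02, limma adjusted p = 0.000122), while the autosomal signal gene sea-1 (−1.77, adjusted p = 0.000378), sex-1 (−0.74) and fox-1 (−0.74) fell. Among 6 sex determination genes downstream, her-1 and fem-2 (0.51) rose and the hermaphrodite-promoting tra-2 (−0.48) fell in y93 embryos, the tra-2 call ending without control array 3 (−0.60 to −0.39 over single arrays left out) and with bright autosomal centring (adjusted p = 0.122), where 4 of the 6 rose. In smo-1 RNAi embryos tra-2 fell (−0.65).

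Of 7 measured SUMO pathway genes, smo-1 and aos-1, a subunit of the activating enzyme (−0.53, limma adjusted p = 0.0016), fell in smo-1 RNAi embryos, and the ligase gei-17 (0.58) and the protease ulp-5 (0.59) rose. The ulp-5 call ended without control array 2 or 3 or smo-1 RNAi array 3 (0.41 to 0.73). Its control arrays read 6.56, 6.26 and 6.46, close to the range of controls without a target. In y93 embryos smo-1 fell and ulp-2 rose (0.49), the ulp-2 call ending without control array 1 or 2 (0.35 to 0.58). With autosomal and bright autosomal centring 3 and 5 of the 7 rose in y93 embryos, and 3 rose without y93 array 1. In their mean over the 9 arrays all genes of these pathway lists lay above the median level. There, with the deposited scaling, limma called 39.8% lower and 21.4% higher for smo-1 RNAi and 28% lower and 19.8% higher for y93. With bright autosomal centring it called 26.8% lower and 31.6% higher for smo-1 RNAi and 16.7% lower and 35% higher for y93. With autosomal centring 42.7% of all called probe sets were lower in y93 embryos, against 59.6% with the deposited scaling.

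**Figure D5:**
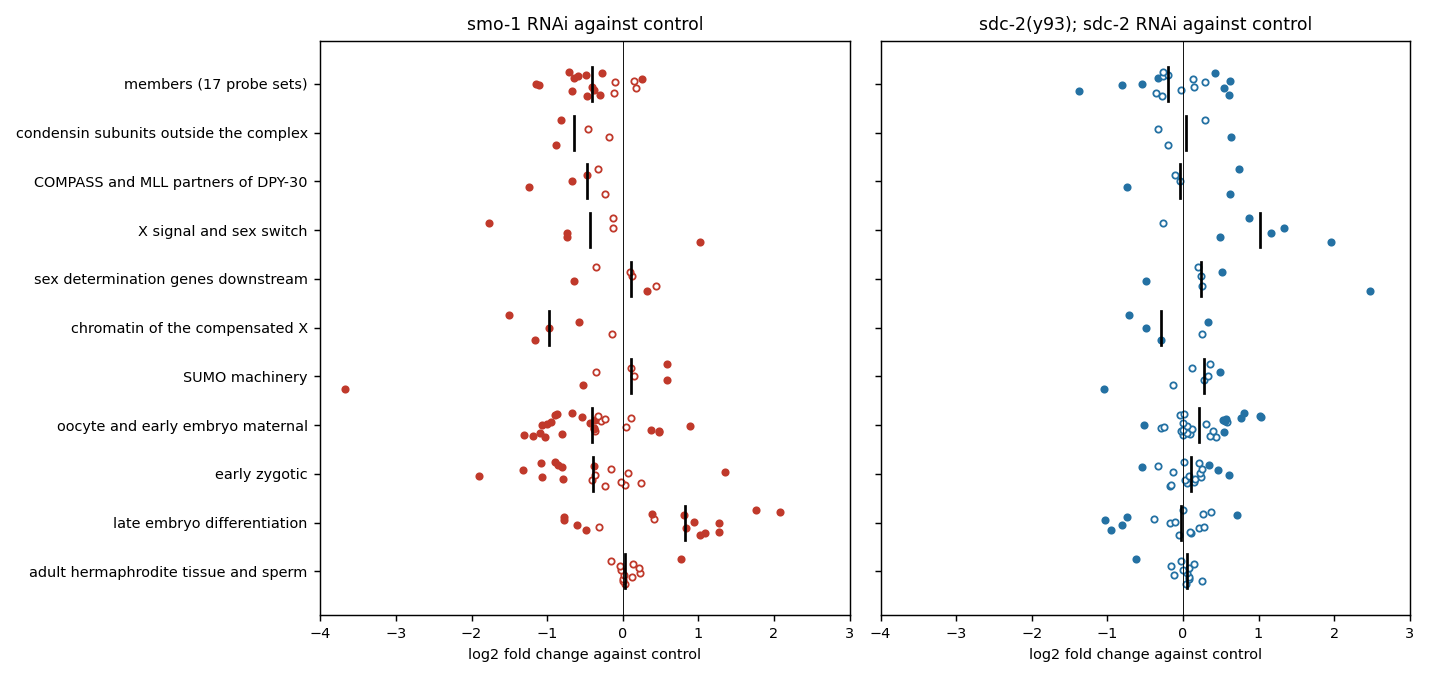
Log2 fold change against control of the members (top row, 17 probe sets) and of each gene in the pathway and stage lists, for smo-1 RNAi (left) and sdc-2(y93) with sdc-2 RNAi (right); filled points passed the limma test, and vertical bars are medians. The late differentiation genes have a median of 0.82 and the maternal genes of −0.41 in the left panel.

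Markers of embryo age differed between smo-1 RNAi and control embryos in mean level per array. The y93 means overlapped control except for the maternal genes. Their means in y93 embryos all lay above control, the lowest nearly touching it, while in smo-1 RNAi embryos they lay below control. As background, limma called 39.8% of probe sets above the median level lower and 21.4% higher in smo-1 RNAi embryos. In y93 embryos it called 28% lower and 19.8% higher. Of the 18 measured early zygotic genes only 11 lay above that level. Over all probe sets the y93 shares were 16.1% lower and 10.9% higher. The 3 early zygotic rises and 4 late falls in y93 embryos lay between the shares for all probe sets and those above the median level. Of 26 oocyte and early maternal genes, 16 fell and 4 rose (cpg-2, cpg-3, egg-2 and cbd-1) in smo-1 RNAi embryos, and their mean level per array was 8.30 to 8.42, against 8.70 to 8.88 in control. In y93 embryos 1 fell (mei-1) and 8 rose, with mean levels of 8.88 to 9.20. Of 18 measured early zygotic genes, 9 fell and 1 rose (sdz-24) in smo-1 RNAi embryos (6.66 to 6.83, against 7.13 to 7.34 in control), and 1 fell (sdz-38) and 3 rose (sdz-1, sdz-28 and ref-1) in y93 embryos (7.25 to 7.40). Of 16 late differentiation genes, 10 rose and 4 fell (myo-3, ges-1, dpy-7 and unc-119) in smo-1 RNAi embryos (10.30 to 10.44, against 9.66 to 9.95 in control). In y93 embryos myo-3, ges-1, dpy-7 and unc-119 fell and rab-3 rose (9.62 to 9.71). Adult and sperm genes lay at 5.92 to 6.04 in smo-1 RNAi, 5.74 to 5.96 in y93 and 5.86 to 5.89 in control embryos, where spe-15 was called higher in smo-1 RNAi and lower in y93 embryos. These counts moved with scaling and single arrays. Bright autosomal centring also moved the shares above the median level, to 26.8% lower and 31.6% higher in smo-1 RNAi embryos. In y93 embryos it moved them to 16.7% lower and 35% higher. With bright autosomal centring 11 maternal genes fell and 5 rose in smo-1 RNAi embryos, with a median of −0.19 in place of −0.41, and none fell and 13 rose in y93 embryos, where autosomal centring gave 12 rises. In y93 embryos bright autosomal centring gave 9 rises and no fall among early zygotic genes and 5 rises among late ones, and autosomal centring 3 late rises, while either centring ended the spe-15 call. Leaving out single arrays gave 12 to 17 maternal falls and 2 to 4 rises in smo-1 RNAi embryos, the 2 without control array 3 or smo-1 RNAi array 1 or 3. In y93 embryos it gave 7 to 12 maternal rises and 0 to 2 falls (0 without control array 3, 2 without y93 array 1 or 2). It also gave 1 to 3 early zygotic rises there (1 without control array 2 or y93 array 1), 1 to 2 early zygotic falls (2 without control array 2) and 1 to 2 late rises (2 without control array 2 or y93 array 1). The spe-15 call in y93 embryos ended without control array 2 or 3, and without y93 array 2 there were 2 early zygotic rises in smo-1 RNAi embryos. The part of embryo age in the subunit changes was not tested. RNA quality was read from the 3′ minus 5′ signal of control transcripts, which for actin was 1.51 in smo-1 RNAi, 1.66 in y93 and 0.86 in control arrays. Over 4 such transcripts the difference from control ran from −0.26 to 0.86 in smo-1 RNAi and from −0.08 to 0.81 in y93 arrays, and its part was not tested.

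Transcripts with the most similar pattern were sought among 20749 probe sets of other genes, by the root mean square difference over the 9 arrays relative to each probe set's control mean. For dpy-27 188603_s_at the nearest were gid-8 (0.068), osg-1 (0.086) and Y73C8B.2 (0.088). Their changes were −1.22, −1.20 and −1.14 in smo-1 RNAi and −0.54, −0.46 and −0.50 in y93 embryos. For sdc-2 175632_at they were nhr-109 (0.123), T25B9.8 (0.131) and twk-14 (0.136), of which nhr-109 and twk-14 lay near the level without a target. Their changes were −0.07, −0.07 and −0.14 in smo-1 RNAi and −0.33, −0.28 and −0.25 in y93 embryos. Probe set 175632_at itself passed the test in neither comparison with control. The other sdc-2 probe set, 173447_s_at, which fell in both, was not searched.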

How the data were processed

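Per the submitters' processing notes, the authors made the deposited log2 signals by RMA with Affymetrix Expression Console. The sources used here do not give its version, its options or any joint processing of the 9 arrays. Of 22625 probe sets, 77 are controls. The platform annotation gave 20766 of the rest 1 gene each, 887 several genes and 895 no listing. Gene identifiers of 20701 were found in the RefSeq table of WBcel235, which gave symbols and chromosomes. Sequences of probes and transcripts were not used here.

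Groups came from the sample titles. The fit used limma 3.58.1 in R 4.3.3 (lmFit and eBayes, 9 arrays, 6 residual degrees of freedom, no covariate), by probe set, two-sided, with Benjamini-Hochberg adjustment over 22548 probe sets at 0.05. It was checked on simulated data, in which far fewer probe sets were changed than were called here. Of log2 changes of 0.5 it recovered 8.5% when they were put in the smo-1 RNAi arrays and 27.5% when put in the y93 arrays. Of changes of 1 it recovered 96.5% and 99%. The means and the noise were the same for both groups, with a single random draw per setting. The gap between 8.5% and 27.5% is thus no measure of a difference between the groups. The simulated noise was revised once, after a first version recovered fewer changes than the bar set for it, so reaching that bar is no independent check. The number of arrays limits the precision. The members, the gene lists and the tests were chosen with earlier results of these data known. Genes named were all members, smo-1, her-1, up to 3 genes of each pathway list with the smallest adjusted p, and the nearest patterns. The genes sea-2, ulp-5, spe-15 and the other named stage markers fall outside that rule and were chosen after their values were seen. Same-numbered replicates correlated between −0.22 and 0.25 in their deviations from group means, and 3 of 9 pairs were over 0.1, so the numbers were not taken as pairs.

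Alternatives were 1 probe set per gene, only probe sets above the median level, no probe sets of the s, x or f kind, only the 6 arrays compared, trend and robust eBayes, array weights, the replicate block, each array left out, 2 centrings, another quantile normalization, and stricter thresholds. The reported fit kept every array.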

Additional observations from a re-analysis of the deposited data

Results flagged for a closer look

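The hybridisation control cre, a bacteriophage transcript that is added by the laboratory and is no part of the embryos, was 7.83 higher on the log2 scale in y93 arrays than in control arrays. It ranged from 12.98 to 13.24 over the 3 y93 arrays, against 5.25 to 5.34 over the control arrays, and from 4.94 to 5.09 over the smo-1 RNAi arrays. It stands here because it lies outside the probe sets that were compared. The labels give no hybridisation batch, so a difference in handling and the group cannot be told apart.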

How the results depend on the processing

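With 3 arrays a group, signals near the 6.29 reached by controls without a target limit dpy-28 181269_at. In smo-1 RNAi embryos, of 12 lower member probe sets, 7 were called with 1 probe set per gene, 5 without s, x or f probe sets, 6 with bright autosomal centring, 7 with another quantile normalization, 7 at an adjusted p of 0.01 and 6 with a fold of at least 1.5; leaving out single arrays gave 7 to 12. The 1 higher call was 0 with 1 probe set per gene, only probe sets above the median level, trend and robust eBayes, the replicate block, autosomal centring, another quantile normalization, an adjusted p of 0.01 or a fold of 1.5, 3 with bright autosomal centring, and 0 to 1 with single arrays left out. The median of −0.41 became −0.34 without s, x or f probe sets, −0.47 with autosomal centring, −0.18 with bright autosomal centring and −0.30 with another quantile normalization, and −0.46 to −0.34 with single arrays left out.

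In y93 embryos, of 4 higher and 4 lower calls, 2 and 1 were left without s, x or f probe sets, and 2 and 2 with a fold of at least 1.5; single arrays left out gave 4 higher throughout and 3 to 4 lower. The median of −0.20 became −0.065 without s, x or f probe sets and 0.041 with bright autosomal centring, and −0.30 to −0.053 with single arrays left out. In the direct comparison, of 9 lower calls, 4 were left without s, x or f probe sets, 5 with only the 6 arrays compared, 5 at an adjusted p of 0.01 and 3 with a fold of at least 1.5, while autosomal centring gave 13, and 5 to 10 with single arrays left out. The 1 higher call was 0 with 1 probe set per gene and without s, x or f probe sets. The median of −0.35 became −0.52 with autosomal centring, and −0.40 to −0.28 with single arrays left out. Genes whose 2 probe sets differ numbered 0 by permutation, which could call none because its smallest p is 0.1. By limma they numbered 4 in smo-1 RNAi and 5 in y93 embryos, beside 40.2% and 47.3% of all genes with exactly 2 probe sets. Settings with 1 probe set per gene, without s, x or f probe sets or with only probe sets above the median level test fewer members, and the last leaves out dpy-28 181269_at, the 1 higher call; the cause of the other moves was not tested.

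Autosomal centring moved the median of all probe sets by −0.06, 0.11 and −0.18 in the 3 comparisons, and the lower share of called probe sets to 42.7% in y93 embryos and 73.0% in the direct comparison, where the deposited scaling gave 50.8%. With the replicate block, 11 of the 12 lower calls in smo-1 RNAi embryos remained and the higher one did not, the 4 lower and 4 higher calls in y93 embryos remained, and 8 of 9 lower calls in the direct comparison remained. The block ended the calls of sdc-1 174953_s_at (adjusted p = 0.0564) and dpy-28 181269_at (0.0575) in smo-1 RNAi embryos and dpy-21 171726_x_at (0.0506) in the direct comparison. No member call changed direction in any alternative.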
